A study of Homo sapiens with 12 samples.

Results

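The genes described are 9 enzymes that carry squalene synthesis through to cholesterol, namely FDFT1, SQLE, LSS, CYP51A1, MSMO1, NSDHL, HSD17B7, SC5D and DHCR7, of 35579 genes that had at least 1 matched transcript in the files. They were chosen by their place in the pathway, and the pathway itself was selected on the lower levels of its genes with TYRO3 in earlier results of the same libraries. The differences from the GFP control are therefore given as a description and are not independent evidence. All 9 genes had estimated counts in every library and passed the filter on low counts, with at least 138 counts in any library.

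The cells were WM-266-4, a human melanoma cell line. Every group carried a stable lentiviral shRNA knock-down of TYRO3, a receptor tyrosine kinase, and was grown with puromycin and starved of serum overnight after transfection. The GFP group received a pEZY-myc-his plasmid with GFP and was the control. The WT group received wild-type TYRO3 in the same plasmid. The ΔGS group received TYRO3 with I449A, a change at the site cut by γ-secretase. The ΔADAM group received TYRO3 with P408A, L409P and G419P, changes at the predicted sites of ADAM proteases. Each of the 4 groups had 1 library in each of 3 experiments, 12 libraries in all, and the comparisons address what TYRO3 does to the transcriptome and whether this depends on its cleavage. The results hold for 1 cell line, for cells in which the endogenous receptor was knocked down, and for transient transfection, where untransfected cells may be part of each library. In the paper the control is called an empty plasmid, whereas the labels name GFP.

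Totals of estimated counts ranged from 4008293 to 38184838 per library. The shallowest library was GFP of experiment 1 and the deepest GFP of experiment 2. Levels between libraries are given as CPM, estimated counts scaled to a common library total after TMM normalization. The level of TYRO3 checked the labels of GFP against TYRO3, with 53.1, 47.3 and 56.6 CPM in the GFP libraries of experiments 1, 2 and 3. It had 3064, 1791 and 1369 CPM with WT, 3694, 1436 and 1648 CPM with ΔGS, and 3284, 1215 and 1181 CPM with ΔADAM. Each TYRO3 library stood far above each GFP library, and the 3 TYRO3 libraries of experiment 1 were above the other 6. The levels of WT, ΔGS and ΔADAM overlapped, so the labels of the 3 constructs were not checked in this way. All 8 melanocyte lineage markers were detected, with a summed level of 1316 to 2783 CPM per library, although TYRP1 was low at 0.526 to 3.24 CPM. The 4 epithelial markers summed to at most 3.08 CPM and 4 blood markers to at most 1.32 CPM, KRT5 being at 0 throughout. The 5 fibroblast markers were not absent, with a sum of 53.7 to 98.9 CPM, and LUM among them had 33.1 to 78.1 CPM.

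Cells make squalene from acetyl-CoA through the mevalonate pathway, and the enzymes described here close squalene into the sterol ring and trim and reduce it to cholesterol. The genes are known targets of SREBP-2, a membrane-bound transcription factor that is released for cleavage when sterols in the endoplasmic reticulum are low. Known promoter elements of sterol genes are sterol regulatory elements together with CCAAT boxes, bound by NF-Y, and GC boxes, bound by Sp1. Cells that lack sterols raise the whole set, and cells loaded with sterols lower it.

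RefSeq promoter windows (GRCh38.p14) were matched for 7 of the 9 genes, all but FDFT1 and SQLE. A window held the 250 bases before and 50 bases after the start of a gene. Letters were searched on both strands. CCAAT was in a window of 6 of the 7, the exception being CYP51A1, and in 39.7% of 27305 genes with a window. GGGCGG, the core of the GC box, was in 6 of the 7, the exception being NSDHL, and in 48.3% of all. CACGTG, an E-box, was in those of LSS and SC5D and in 8.78% of all. TCACNCCAC, letters like those of a known sterol regulatory element, was in 0 of the 7 and in 1.39% of all, which says only that these exact letters are not in these windows. The 250 bases before the start are shown for 3 genes. LSS had the largest difference from GFP, MSMO1 was the gene whose difference depended most on the experiment, and CYP51A1 lacked the box. Capitals mark CCAAT on either strand, so that ATTGG is a box on the strand not shown.
LSS promoter, chr21:46228775-46229024, strand -: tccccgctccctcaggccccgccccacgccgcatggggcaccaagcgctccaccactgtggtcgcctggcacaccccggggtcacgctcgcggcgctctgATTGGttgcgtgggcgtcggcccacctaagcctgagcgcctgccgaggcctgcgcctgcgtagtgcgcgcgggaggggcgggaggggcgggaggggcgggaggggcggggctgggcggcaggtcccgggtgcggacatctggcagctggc
CYP51A1 promoter, chr7:92134478-92134727, strand -: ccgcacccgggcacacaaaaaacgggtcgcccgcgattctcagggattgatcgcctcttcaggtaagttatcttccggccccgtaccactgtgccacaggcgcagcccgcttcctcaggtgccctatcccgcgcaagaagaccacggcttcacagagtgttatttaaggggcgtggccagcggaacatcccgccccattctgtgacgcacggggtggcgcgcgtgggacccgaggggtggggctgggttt
MSMO1 promoter, chr4:165327419-165327668, strand +: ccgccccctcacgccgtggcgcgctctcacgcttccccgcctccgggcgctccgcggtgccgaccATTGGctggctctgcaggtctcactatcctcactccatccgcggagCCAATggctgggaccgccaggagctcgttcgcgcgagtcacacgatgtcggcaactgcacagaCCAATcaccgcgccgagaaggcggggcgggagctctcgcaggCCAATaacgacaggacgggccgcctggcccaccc
In these 250 bases LSS had 1 CCAAT box and 6 matches to GGGCGG, MSMO1 had 4 and 2, and CYP51A1 had 0 and 1. Of the GC boxes of LSS, 5 lay in tandem, beginning at -75, -66, -57, -48 and -38 from its start, whereas the CCAAT boxes of MSMO1 were spread over the window. NSDHL held 5 CCAAT boxes and no GC box, and HSD17B7 held 1 of each.

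The genes lie on 7 chromosomes (GENCODE 29, GRCh38). FDFT1 spans bases 11795573 to 11839309 and SQLE bases 124998497 to 125022283 of the plus strand of chromosome 8. LSS is on the minus strand of chromosome 21 at 46188141 to 46228824, and CYP51A1 on the minus strand of chromosome 7 at 92112151 to 92134803. MSMO1 is on the plus strand of chromosome 4 at 165327623 to 165343160, NSDHL on the plus strand of chromosome X at 152830967 to 152869729, and HSD17B7 on the plus strand of chromosome 1 at 162790702 to 162812817. SC5D, at 121292453 to 121308694 on the plus strand, and DHCR7, at 71428193 to 71452868 on the minus strand, are both on chromosome 11. The 9 genes are thus scattered, with SC5D and DHCR7 far apart on their chromosome.

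All 9 genes were lower with TYRO3 than with GFP. Each of them had its 9 TYRO3 libraries below its 3 GFP libraries without overlap, an order that 5.21% of the 15098 genes tested had. On average over the 3 TYRO3 groups the levels were between 39.4% (LSS) and 63.2% (NSDHL) of GFP. The differences were largest in experiment 1 and smaller, in the same direction, in experiments 2 and 3. Since RNA was taken from whole cultures, a change in every cell and a stronger change in the transfected cells alone cannot be told apart, nor can fewer cells of a type and less RNA per cell.

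**Figure D1:**
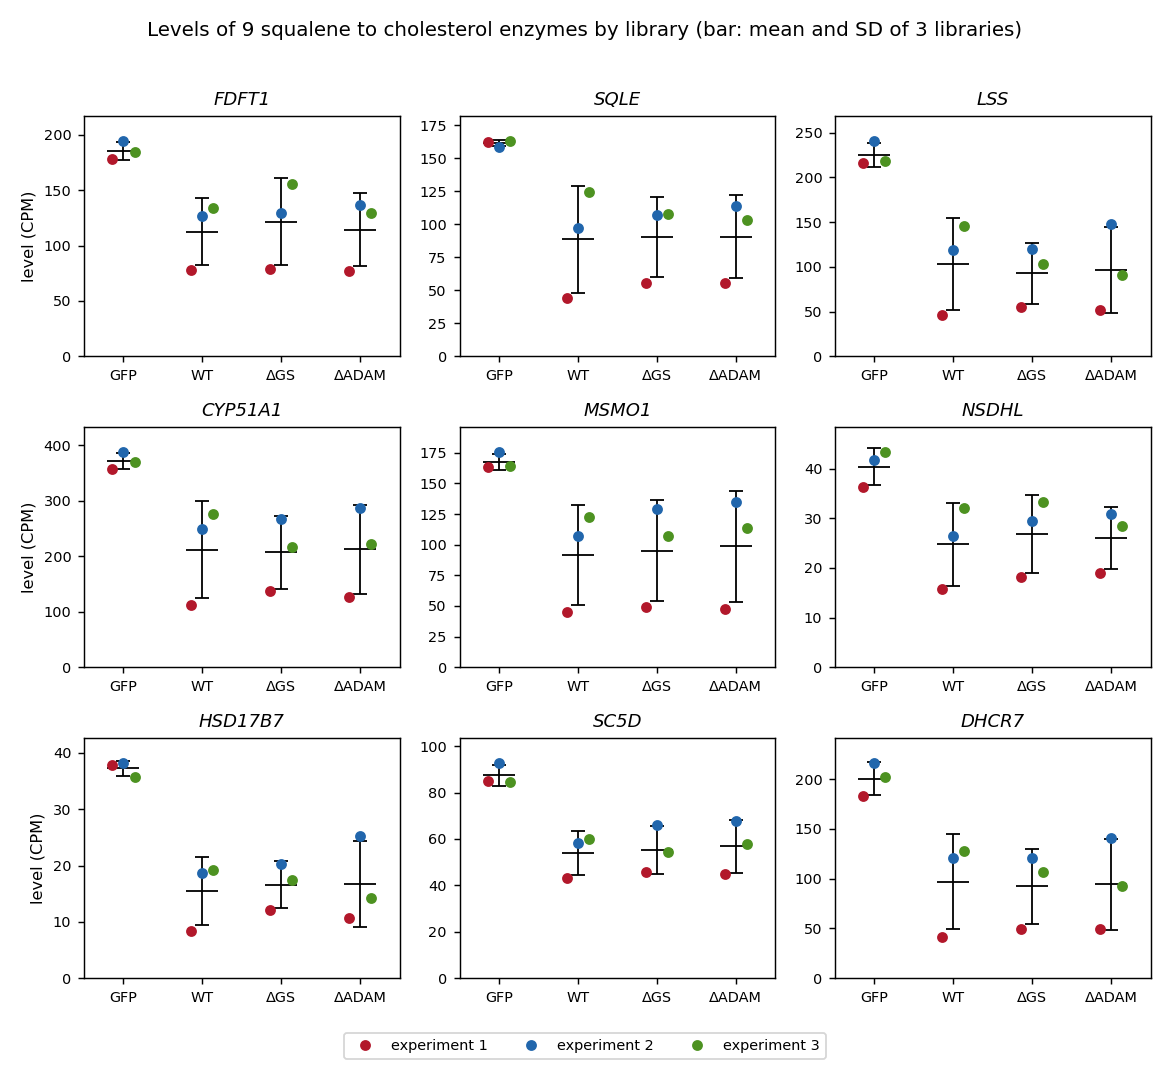
Level of each of the 9 genes (CPM, linear axis from 0) in the 12 libraries, with groups on the horizontal axis, a coloured point for each experiment, and black bars for the mean and SD of 3 libraries. All GFP points lie above all TYRO3 points in each panel, and the red points of experiment 1 are the lowest within each TYRO3 group.

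FDFT1, squalene synthase, joins farnesyl diphosphate molecules into squalene and so commits them to sterols. It had 178, 194 and 184 CPM in GFP of experiments 1, 2 and 3. With WT it had 77.6, 127 and 134 CPM, with ΔGS 79.0, 130 and 156 CPM, and with ΔADAM 76.8, 137 and 130 CPM. Its 3 TYRO3 libraries of experiment 1 lay close together and well below the other 6, and its log2 fold change for the mean of the TYRO3 groups was -0.73 ± 0.12 (SE).

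SQLE, squalene epoxidase, adds the oxygen to squalene and is a rate-limiting step of the pathway. GFP libraries had 162, 159 and 163 CPM, nearly the same level in each experiment. WT libraries had 44.4, 97.5 and 124 CPM, ΔGS libraries 55.3, 107 and 108 CPM, and ΔADAM libraries 55.3, 114 and 103 CPM. The spread of the TYRO3 libraries followed the experiment rather than the construct, and the log2 fold change was -0.95 ± 0.17 (SE).

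LSS, lanosterol synthase, folds squalene epoxide into lanosterol, the first sterol. It had 216, 240 and 218 CPM with GFP. The values were 45.7, 119 and 145 CPM with WT, 55.1, 121 and 103 CPM with ΔGS, and 51.6, 147 and 91.0 CPM with ΔADAM. This gene differed most from GFP among the 9, with a log2 fold change of -1.34 ± 0.21 (SE), and its highest TYRO3 library, ΔADAM of experiment 2, was still well under the lowest GFP library.

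CYP51A1, lanosterol 14-alpha-demethylase, takes off the first methyl group and is the target that azole drugs inhibit in fungi. It had 358, 388 and 371 CPM with GFP. Libraries with WT had 112, 249 and 276 CPM, those with ΔGS 137, 268 and 218 CPM, and those with ΔADAM 127, 288 and 223 CPM. The GFP and TYRO3 libraries did not overlap, and the log2 fold change was -0.92 ± 0.16 (SE).

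MSMO1, NSDHL and HSD17B7 work together to remove the pair of methyl groups at carbon 4, as the oxidase, the decarboxylating dehydrogenase and the ketoreductase. MSMO1 had 163, 175 and 164 CPM with GFP, 45.2, 107 and 123 CPM with WT, 49.3, 129 and 107 CPM with ΔGS, and 47.7, 135 and 113 CPM with ΔADAM. Its 3 values of experiment 1 were under all others, and its log2 fold change was -0.97 ± 0.20 (SE). NSDHL had 36.3, 41.7 and 43.3 CPM with GFP, 15.7, 26.5 and 32.0 CPM with WT, 18.1, 29.4 and 33.2 CPM with ΔGS, and 19.1, 30.9 and 28.4 CPM with ΔADAM. The gap between the lowest GFP and the highest TYRO3 library was narrow for this gene, and its log2 fold change of -0.66 ± 0.11 (SE) was the smallest in size of the 9.

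HSD17B7 had 37.9, 38.1 and 35.7 CPM with GFP, 8.46, 18.6 and 19.2 CPM with WT, 12.1, 20.2 and 17.4 CPM with ΔGS, and 10.7, 25.2 and 14.2 CPM with ΔADAM. The WT library of experiment 1 was the lowest, and the log2 fold change was -1.24 ± 0.19 (SE). Reads of this gene can be shared with a copy, the pseudogene HSD17B7P2, which had 1.03 to 3.95 CPM, 8.90% of the level of HSD17B7 on average. How the estimate divided the reads was not tested.

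SC5D, lathosterol oxidase, puts in the double bond at carbon 5, and DHCR7 removes the double bond at carbon 7 to yield cholesterol. SC5D had 84.9, 92.6 and 84.6 CPM with GFP, 43.2, 58.5 and 60.1 CPM with WT, 45.7, 66.1 and 54.3 CPM with ΔGS, and 45.0, 67.8 and 57.9 CPM with ΔADAM. It had the smallest differences between experiments and the smallest standard error of the 9, with a log2 fold change of -0.67 ± 0.09 (SE). DHCR7, the gene mutated in Smith-Lemli-Opitz syndrome, had 183, 216 and 203 CPM with GFP, 41.7, 121 and 128 CPM with WT, 49.6, 121 and 107 CPM with ΔGS, and 49.4, 141 and 92.3 CPM with ΔADAM. Its log2 fold change was -1.23 ± 0.19 (SE), next in size to those of LSS and HSD17B7.

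A library was also set against the GFP library of its own experiment, as the log2 ratio of CPM with 0.5 CPM added to both. All 81 ratios (9 genes in 9 TYRO3 libraries) were below 0, and they ranged from -2.23 to -0.24. The lowest was LSS with WT in experiment 1 and the highest FDFT1 with ΔGS in experiment 3. The median over the 9 genes was -1.84, -1.55 and -1.54 with WT, ΔGS and ΔADAM in experiment 1. It was -0.70, -0.56 and -0.48 in experiment 2 and -0.46, -0.64 and -0.65 in experiment 3. The median over all genes tested lay between -0.014 and 0.024 in these libraries. Without experiment 1, 54 of 54 ratios were below 0, and the 6 TYRO3 libraries of experiments 2 and 3 were below both GFP libraries for 9 of 9 genes and for 9.62% of all genes tested.

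**Figure D2:**
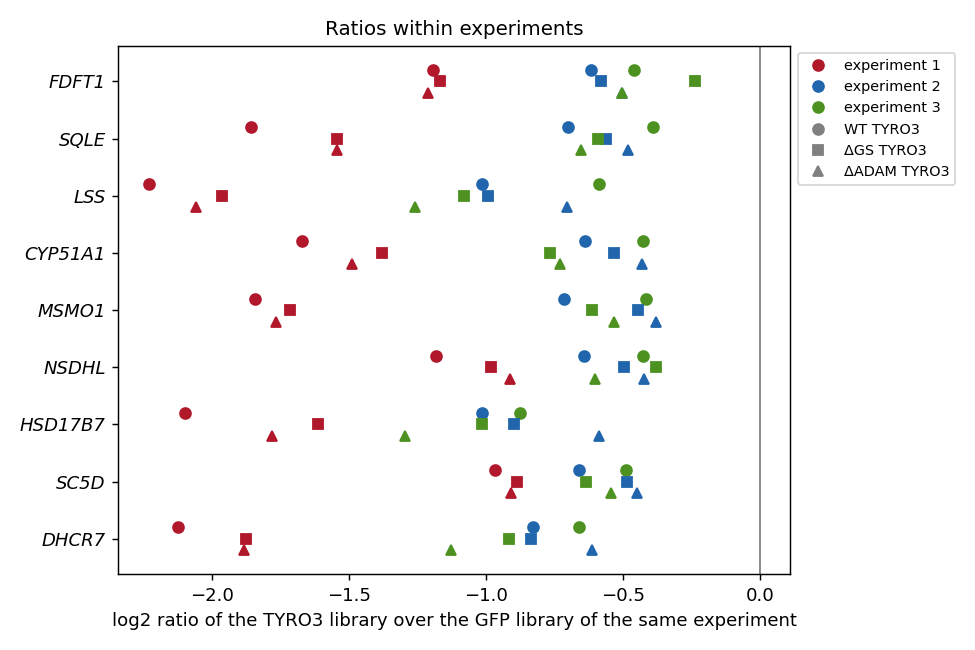
Log2 ratio of each TYRO3 library over the GFP library of the same experiment (horizontal axis, 0 marked by a line) for the 9 genes in pathway order, with colour for the experiment and shape for the construct. All 81 symbols are left of 0, between -2.23 and -0.24, and those of experiment 1 are furthest left for each gene.

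In a model of all 12 libraries, the quasi-likelihood test of edgeR held a batch term that set experiment 1 apart from the other 2. A gene was called if its fold change exceeded 1.5 and its p, adjusted over all genes tested, did not exceed 0.05. For the mean of the 3 TYRO3 groups against GFP, 9 of 9 genes were called lower, where 1.52% of all genes were called lower, with adjusted p-values of edgeR from 0.0113 to 0.0206. The median log2 fold change was -0.95 over the 9 genes and -0.0019 over all genes tested. This call rested on the GFP library of experiment 1, since without it 0 of 9 were called (adjusted p 0.0855 to 0.126 in edgeR) while the fold changes stayed below 0. Without ΔADAM of experiment 1, 8 of 9 were called, and 9 of 9 without any other single library. The samples of 1 experiment deviated together, so the fit with a replicate block, that is a term for each experiment, is given beside the first, and it called 9 of 9 where 2.19% of all genes were called lower. Without the GFP library of experiment 1 the fit with a term for each experiment called 3 of 9.

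Single groups gave fewer calls at similar sizes. The 3 comparisons share the GFP libraries and so are not independent of each other. With WT, 0 of 9 genes were called by edgeR, where 0.0% of all genes were called lower. In edgeR an unadjusted p under 0.05 was found for 9 of 9 and for 2300 of the 15098 genes tested. DESeq2 called 9 of 9, where it called 156 of the 15098 lower. The median log2 fold change over the 9 was -0.99, from -1.33 (HSD17B7) to -0.71 (SC5D). A term for each experiment brought 8 of 9 calls, where 0.689% of all genes were called lower, and MSMO1 missed the threshold with an adjusted p of 0.0505 in edgeR.

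With ΔGS, SC5D alone was called lower by edgeR, where 0.179% of all genes were called lower. DESeq2 called 9, where it called 264 of 15098 genes lower. The median log2 fold change was -0.93, from -1.39 (LSS) to -0.61 (NSDHL), and a term for each experiment brought 9 of 9 calls where 1.88% of all genes were called lower. With ΔADAM, 5 of 9 were called lower, namely FDFT1, LSS, HSD17B7, SC5D and DHCR7, where 0.497% of all genes were called lower. The median was -0.93, from -1.35 (LSS) to -0.63 (SC5D), and a term for each experiment brought 9 of 9 calls where 2.05% of all genes were called lower. The ΔGS call was lost when any of 9 libraries was left out (any GFP, any ΔGS, and ΔADAM of experiments 1 or 3, or WT of experiment 2). None of the 5 ΔADAM calls remained without any GFP library, ΔADAM of experiments 1 or 3, ΔGS of experiments 1 or 2, or WT of experiment 2.

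Experiments 2 and 3 alone gave smaller differences. For the mean of the TYRO3 groups, the median log2 fold change was -0.55, from -0.93 (HSD17B7) to -0.47 (FDFT1). In edgeR 0 of 9 genes were called, where 0.0% of all genes were called lower. An unadjusted p under 0.05 was found for 9 of 9 and for 1418 of the 14960 genes tested there. With a term for each experiment, adjusted p-values of edgeR were 0.0161 to 0.0460 for the 9 genes, and LSS, HSD17B7 and DHCR7 passed the threshold on the fold as well, where 0.675% of all genes were called lower.

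WT TYRO3 did not differ detectably from the cleavage-resistant forms. Against the mean of ΔGS and ΔADAM, 0 of 9 genes were called by edgeR, where 0.0% of all genes were called in either direction, and 0 of 9 had an unadjusted p under 0.05, likewise 0 of 9 in DESeq2. Log2 differences lay between -0.13 (HSD17B7) and 0.08 (LSS). Their 95% intervals were -0.60 to 0.34 for HSD17B7 and -0.42 to 0.59 for LSS, and the narrowest of the 9 was -0.28 to 0.16 for SC5D. ΔGS against ΔADAM gave 0 of 9 calls in edgeR, where 0.0% of all genes were called, and 0 of 9 with an unadjusted p under 0.05 in edgeR or DESeq2. Differences there lay between -0.04 (MSMO1) and 0.08 (FDFT1), with intervals as wide as -0.62 to 0.55 for LSS. A difference of about 1.5-fold between constructs is therefore outside the intervals of SC5D. For LSS it is at the upper limit with WT higher, inside with ΔGS lower than ΔADAM, and outside in the opposite directions.

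**Figure D3:**
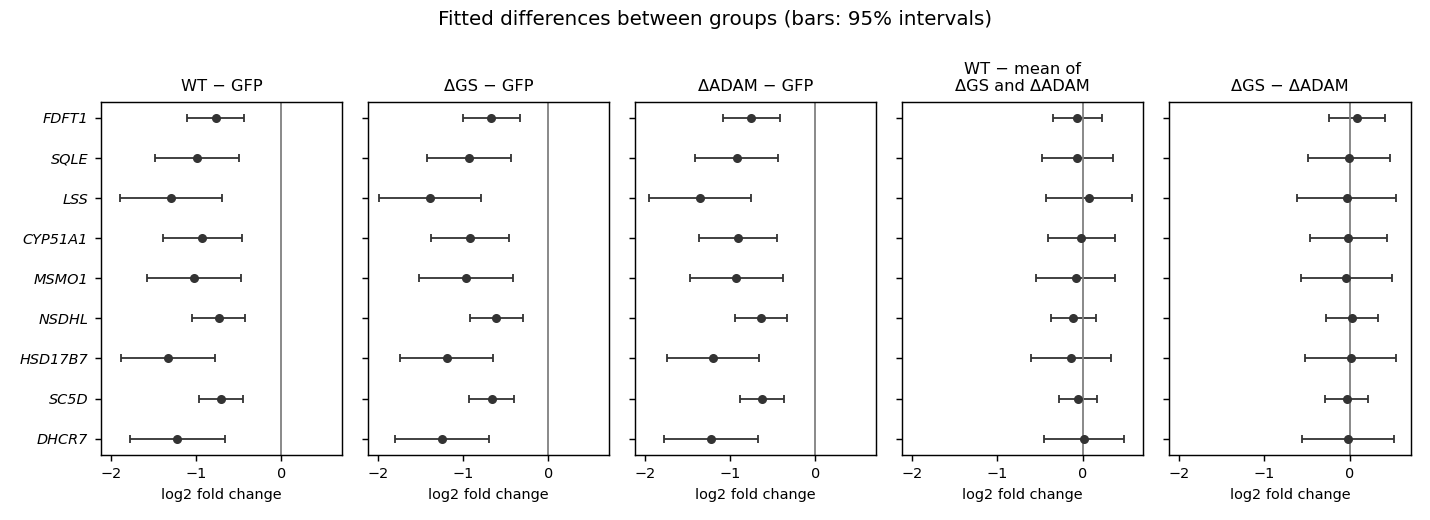
Fitted log2 fold changes (points) with 95% intervals (bars) of the 9 genes for each TYRO3 group minus GFP (first 3 panels) and between TYRO3 groups (last 2 panels). The intervals of the first 3 panels lie below 0, and those of the last 2 include 0 for all 9 genes.

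The size of the difference varied by experiment more than by construct. In a fit with TYRO3 against GFP, experiment 1 against the others, and their interaction, the difference was larger in size in experiment 1 for 9 of 9 genes. MSMO1 had a log2 fold change of -1.78 in experiment 1 and -0.51 in experiments 2 and 3, a difference of -1.27 ± 0.17 (SE) with an adjusted p of 0.0235 in edgeR. It was called below 0, as were 0.0199% of all genes tested. In experiment 1 the control of this fit was 1 GFP library, the shallowest at 4008293 counts. Its spread was assumed to be like that of the other libraries, and the call has no replicate check on the GFP side. On the TYRO3 side the 3 libraries of experiment 1 were 3 constructs of that 1 experiment, treated as replicates. How far experiment 1 would differ from a repeat of it is therefore not measured by the p-values of this fit. The other 8 genes missed the threshold, with SQLE next at -1.09 ± 0.18 (SE, adjusted p of 0.0808 in edgeR) and SC5D last at -0.38 ± 0.16 (SE, adjusted p of 0.553 in edgeR). The 3 TYRO3 libraries of experiment 1 were below the 6 of experiments 2 and 3 for 9 of 9 genes and for 12.2% of all genes tested.

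The GFP library of experiment 1, the shallowest, did not stand apart in these genes, its largest gap being 14.6% under the mean of the other GFP libraries (NSDHL). TYRO3 itself was at 3064 to 3694 CPM in the TYRO3 libraries of experiment 1 and at 1181 to 1791 CPM in those of experiments 2 and 3. Within experiment 1 WT had the lowest TYRO3 level and the lowest median ratio. In experiment 2 more TYRO3 went with a lower median ratio. WT had 1791 CPM and -0.70, ΔGS 1436 CPM and -0.56, and ΔADAM 1215 CPM and -0.48. Experiment 3 was mixed, with ΔGS at 1648 CPM and -0.64, WT at 1369 CPM and -0.46, and ΔADAM at 1181 CPM and -0.65. The part of the TYRO3 level, or of anything else that differed between experiments, in the size of the differences was not tested.

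**Figure D4:**
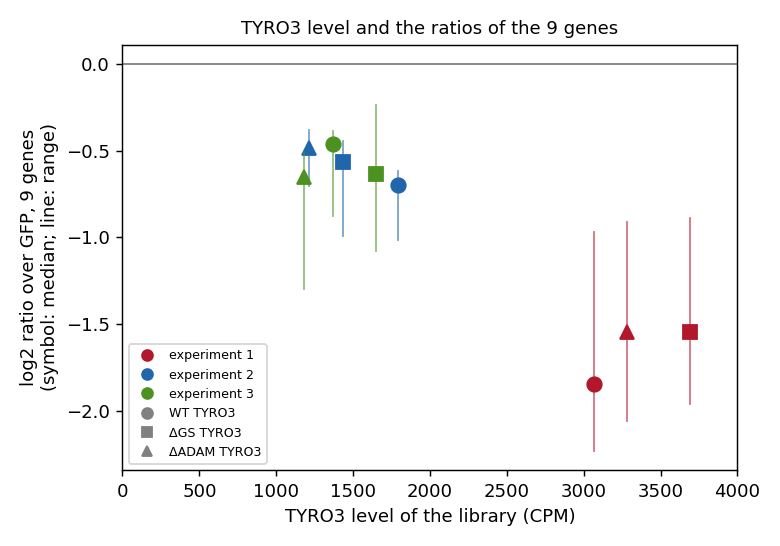
TYRO3 level of each TYRO3 library (CPM, horizontal axis) against the log2 ratio over the GFP library of the same experiment for the 9 genes (symbol, median; line, range). Experiment 1 forms a separate cluster at 3064 to 3694 CPM with medians of -1.84 to -1.54, and the other 6 libraries lie between 1181 and 1791 CPM with medians of -0.70 to -0.46.

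Levels of different genes are compared by TPM, which accounts for transcript length. In the GFP libraries the order from high to low was CYP51A1 at 198 ± 19.2, FDFT1 at 170 ± 19.0, DHCR7 at 154 ± 21.7, MSMO1 at 126 ± 15.1, SQLE at 97.6 ± 4.79, LSS at 88.7 ± 15.3, SC5D at 68.2 ± 4.44, HSD17B7 at 48.5 ± 6.89 and NSDHL at 37.8 ± 6.60 TPM (mean ± SD, n = 3). The ranges of neighbours overlapped from CYP51A1 to MSMO1 and between SQLE and LSS. MSMO1 and SQLE were apart, as were LSS and SC5D, SC5D and HSD17B7, and HSD17B7 and NSDHL.

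For most of the 9 genes 1 protein-coding transcript held most of the estimated counts. On average over the 12 libraries it was CYP51A1-201 with 89.5%, LSS-205 with 84.4%, DHCR7-201 with 81.2%, SQLE-201 with 80.5%, MSMO1-201 with 78.0%, SC5D-202 with 73.5%, NSDHL-203 with 64.9% and FDFT1-201 with 58.6%. HSD17B7 divided its counts between HSD17B7-201 at 51.4% and HSD17B7-208, a processed transcript with no annotated coding sequence, at 34.3%. DHCR7-201 varied most, from 47.6% in the GFP library of experiment 1 to 91.5% in the WT library of experiment 2. The TPM values of DHCR7 move with this division, which is an estimate, while its summed counts depend on it less. Genes on the opposite strand overlap FDFT1, LSS, CYP51A1 and DHCR7, and no value of them was used here. On the same strand as CYP51A1, AC000120.3 had 0.263 to 10.5 CPM.

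Of 4 further enzymes of the same stretch of the pathway, 3 were called lower for the mean of the TYRO3 groups, where 1.52% of all genes were. In experiments 2 and 3 alone edgeR called 0 of the 4, also with a term for each experiment. Without that term 3 of the 4 had an unadjusted p under 0.05, beside 1418 of 14960 genes tested. TM7SF2 and LBR both hold the sterol C14-reductase activity that follows CYP51A1. TM7SF2 had a log2 fold change of -1.10 ± 0.28 (SE, adjusted p of 0.0406 in edgeR), whereas LBR, also the lamin B receptor of the nuclear envelope, had -0.30 ± 0.08 (SE, adjusted p of 0.0513 in edgeR) and was not called. The difference between these 2 genes was not tested. EBP, the sterol isomerase, had -0.68 ± 0.14 and ERG28, a scaffold of the C4 enzymes, -0.68 ± 0.13 (log2 fold change ± SE), both called lower.

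Upstream of squalene, 7 of 9 genes of the mevalonate list were called lower, where 1.52% of all genes were. None of the 7 calls remained in edgeR in experiments 2 and 3 alone. There 7 genes had an unadjusted p under 0.05, beside 1418 of 14960 genes tested. A term for each experiment gave 6 calls there. HMGCS1, which makes HMG-CoA, had a log2 fold change of -1.64 ± 0.22 (SE), MVD, the decarboxylase of the route, -1.54 ± 0.23 (SE), ACAT2, the acetoacetyl-CoA thiolase, -1.19 ± 0.17 (SE), and FDPS, which makes farnesyl diphosphate, -0.77 ± 0.10 (SE). The exceptions, named after their values were seen, were PMVK at -0.11 ± 0.14 (SE) and GGPS1, which leads to geranylgeranyl diphosphate rather than sterols, at -0.16 ± 0.08 (SE). The differences from GFP in this list were thus of about the same size as those of the 9 enzymes, with a median of -1.03.

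**Figure D5:**
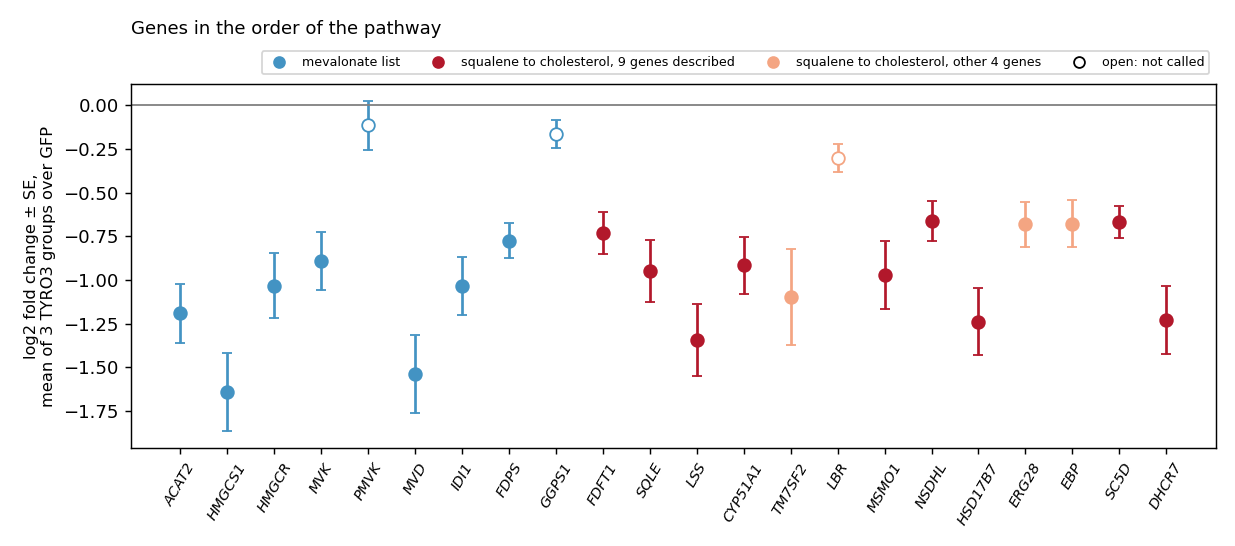
Log2 fold change ± SE for the mean of the 3 TYRO3 groups over GFP (vertical axis), with genes along the pathway from acetyl-CoA to cholesterol and open symbols for genes not called. Red symbols are the 9 genes described, from -1.34 (LSS) to -0.66 (NSDHL), and the open symbols are PMVK, GGPS1 and LBR.

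Among 10 genes for SREBP control and sterol handling, 4 were called lower, where 1.52% of all genes were. Without experiment 1 edgeR called 0, and 3 had an unadjusted p under 0.05, beside 1418 of 14960 genes tested. With a term for each experiment it called INSIG1 alone. INSIG1, which holds SREBP in the endoplasmic reticulum, had -1.19 ± 0.25, SREBF2, which encodes SREBP-2, -0.63 ± 0.13, and SREBF1 -0.76 ± 0.19 (log2 fold change ± SE). The median of the 10 was -0.30. Of 7 fatty acid genes 4 were called lower against the same share of all genes, and 3 with a term for each experiment. Without experiment 1 edgeR called 0 of the 7, and 5 had an unadjusted p under 0.05, beside 1418 of 14960 genes tested. With that term it called 3 of the 7. Those called in all 12 libraries included ACLY, ATP citrate lyase, at -0.73 ± 0.11, SCD, the stearoyl-CoA desaturase, at -1.08 ± 0.20 and FADS1 at -0.59 ± 0.14, whereas ELOVL6 at -0.39 ± 0.09 did not pass the fold threshold (log2 fold change ± SE).

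Of 6 tested genes of sterol efflux and sensing 0 were called by edgeR, and 2 had an unadjusted p under 0.05 there, beside 3655 of 15098 genes tested. DESeq2 called 1 of the 6, where it called 752 of the 15098 in either direction. ABCA1, the cholesterol exporter that is induced when sterols are plentiful, had 1.41 ± 0.43 (log2 fold change ± SE, adjusted p of 0.0734 in edgeR) and was called higher with a term for each experiment (adjusted p of 0.00432 in edgeR), where 3.48% of all genes were called higher against 1.79% without that term. In experiments 2 and 3 alone it was called higher with the term (adjusted p of 0.0387 in edgeR), where 1.49% of all genes were, and not without it (adjusted p of 0.522 in edgeR), where 0.00668% were. The level of ABCA1 was low, at 1.26 to 1.94 CPM in GFP and 1.53 to 7.33 CPM with TYRO3, with the ranges overlapping. In the GFP library of experiment 1 it rested on 7 counts. SOAT1, which esterifies cholesterol, had -0.35 ± 0.10, MYLIP -0.19 ± 0.11 and NR1H3 -0.23 ± 0.14 (log2 fold change ± SE).

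The 9 genes varied together across libraries, as did other genes. With log2 CPM centred within each experiment, Pearson's r between members over the 12 libraries was 0.941 to 0.996 with a median of 0.97 over 36 pairs, and the libraries share experiments and the contrast with GFP. The gene most like the mean of the 9 was IDI1, isopentenyl diphosphate isomerase, at r = 0.997 over 12 libraries. By the same r FDFT1, at 0.971, ranked 94 among all genes tested, SC5D 44 and MSMO1 34, although each is part of the mean. ACAT2 at 0.993 and HMGCS1 at 0.991 were other sterol genes among the most alike. Others were FCRLA at 0.992, ST8SIA1, a ganglioside synthase, at 0.991, MC1R, the melanocortin receptor, at 0.990, ZADH2 and YPEL2 at 0.989, and OAT, ornithine aminotransferase, at 0.988.

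Of the 8 markers of the melanocyte lineage, 2 were called lower for the mean of the TYRO3 groups, where 1.52% of all genes were. They were MITF, the lineage transcription factor, at -0.96 ± 0.18 and DCT, a pigment enzyme, at -1.18 ± 0.24 (log2 fold change ± SE). SOX10 had -0.30 ± 0.12 and S100B -0.43 ± 0.17 (log2 fold change ± SE) and were not called. TYRP1, another pigment enzyme, named after its values were seen, had 0.68 ± 0.42 (log2 fold change ± SE) and was the 1 marker of the 8 above 0. Without experiment 1 edgeR called 0 of the 8, and 2 had an unadjusted p under 0.05, beside 1418 of 14960 genes tested. With a term for each experiment it called MITF alone. The summed level of the 8 was 2292 to 2783 CPM in GFP, 1316 to 2550 CPM with WT, 1367 to 2293 CPM with ΔGS and 1357 to 2065 CPM with ΔADAM. Of 4 tested fibroblast markers, LUM was called lower at -0.66 ± 0.14 (log2 fold change ± SE) and the other 3 were not called, with DCN at -1.22 ± 0.40, COL1A1 at 0.43 ± 0.40 and PDGFRB at 0.08 ± 0.30 (log2 fold change ± SE). DCN and PDGFRB were low, at 0.166 to 1.84 CPM and 1.5 to 3.3 CPM over the 12 libraries. The LUM call was lost in edgeR without experiment 1, also with a term for each experiment. Without that term 1 of the 4 had an unadjusted p under 0.05, beside 1418 of 14960 genes tested. The list summed to 75.6 to 98.9 CPM in GFP and 53.7 to 85.0 CPM with TYRO3. Of 3 endothelial markers 2 were tested and 0 called, with 0 at an unadjusted p under 0.05 and 0 called by DESeq2, and with sums of 0.787 to 2.42 CPM. The part of these markers in the differences of the 9 genes was not tested.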

How the data were processed

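RNA of WM-266-4 cells in 4 groups and 3 experiments was sequenced as stranded poly(A) libraries with paired-end reads. PRINSEQ and Trimmomatic 0.33 were used by the authors for trimming, and kallisto 0.46.0 for pseudoalignment to Ensembl 96 (GRCh38). The strand setting is not given in the sources used here. The deposited values are the estimated counts and the TPM values of 188753 transcripts per library, before the batch correction of the paper. No replicate culture below the experiment is named in the labels, so p-values measure the spread between these libraries.

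Transcripts were matched by identifier without version to GENCODE 29, which left 18956 unmatched and 97.4 to 97.5% of the counts matched, and were summed to 35579 genes. Depth was 4008293 to 38184838 counts (median 23302002), and 15098 genes passed filterByExpr (minimum count 10, minimum total 15). Rounded counts were scaled by TMM and tested in edgeR 4.0.16 (R 4.3.3) by quasi-likelihood, in a model of group and batch (experiment 1, or experiments 2 and 3), and p-values were adjusted by Benjamini-Hochberg within each of 6 comparisons. A call needed a fold change above 1.5 and an adjusted p no higher than 0.05. Experiments pair the samples by the labels. Deviations from group means correlated at r = 0.136 to 0.661 in 18 pairs of the same experiment and at -0.495 to 0.033 in 36 other pairs.

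Alternatives changed the size factors, the tool (DESeq2 1.42.0, or limma 3.58.1 on log2 of TPM + 1), the filter (none, or 10 counts in each library), the batch (none, or a replicate block with 1 term per experiment), the libraries (without experiment 1, or without each in turn), the fold threshold, and for ratios the pseudocount (0.1 and 5 CPM) or the unit (TPM). The block with DESeq2, with other size factors and without the GFP library of experiment 1, and the interaction with the experiment, were chosen after seeing the data. Simulated counts, with means and spreads taken from these libraries and no effect of experiment, were run through the same functions.

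The 9 genes and all lists were chosen with earlier results of these data known. Named were the 9, the further enzymes of the pathway, TYRO3, up to 4 genes per other list by the smallest adjusted p, and the 10 genes most alike, apart from a few that are not reported here. Tables were made with pandas 2.3.3 in Python 3.11.15, figures with matplotlib 3.10.9.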

Additional observations from a re-analysis of the deposited data

Results flagged for a closer look

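For MSMO1 the interaction of TYRO3 with experiment 1 was past the threshold of edgeR's test (adjusted p of 0.0235), with 1 GFP library in experiment 1, whose spread was assumed to be like that of the other libraries. The difference of its log2 fold change, experiment 1 minus experiments 2 and 3, was -1.27 with a 95% interval of -1.65 to -0.90, and its ratio was below 0 in 9 of 9 TYRO3 libraries within their experiments. The 3 TYRO3 libraries of experiment 1 were different constructs of 1 experiment, so the p-value does not measure how far a repeat of experiment 1 would differ. A group of 3 libraries is too small for a search of outlying samples, and none was made.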

How the results depend on the processing

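The direction of the 9 genes against GFP was the same in all alternatives run, and the median log2 fold change lay between -1.12 and -0.55 for the mean of the TYRO3 groups. The number called depended on the setting. For the mean of the 3 TYRO3 groups, 9 of 9 calls became 0 without a batch term, 0 in experiments 2 and 3 alone (3 with the replicate block), 3 with the replicate block but without GFP of experiment 1, and 0 to 9 with 1 library left out. Limma called fewer than 9 for this mean. With WT, 0 calls became 9 with DESeq2 (also with the replicate block) or without a filter, 8 with the replicate block (also with the other size factors) and 2 with the block but without GFP of experiment 1, and stayed at 0 with any 1 library left out. With ΔGS, 1 call became 9 with DESeq2, without a filter or with the replicate block (also in DESeq2 or with the other size factors), 3 with at least 10 counts in every library or with the block but without GFP of experiment 1, 2 in experiments 2 and 3 with the block, and 0 without the block there, without a batch term or with limma, with 0 to 4 for 1 library left out. With ΔADAM, 5 calls became 9 with DESeq2, without a filter or with the replicate block (also in DESeq2 or with the other size factors), 3 with the block but without GFP of experiment 1, 1 in experiments 2 and 3 with the block, and 0 without the block there, without a batch term or with limma, with 0 to 8 for 1 library left out. The median log2 difference of ΔGS against ΔADAM ranged from -0.10 to 0.13 with 1 library left out, and that of WT against both from -0.14 to 0.06, with 0 calls for either in every alternative. The number of all genes called moved with the setting too. Of 15098 genes edgeR called 0, 27 and 75 lower with WT, ΔGS and ΔADAM. DESeq2 called 156, 264 and 261 lower, and edgeR with the replicate block 104, 284 and 309. Fewer samples or another estimate of the spread are part of several alternatives by construction, and the cause of the other shifts was not tested. All 81 ratios within experiments stayed below 0 with either pseudocount and with TPM. Depth limits the GFP library of experiment 1 most, where NSDHL rested on 138 and HSD17B7 on 144 counts.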

Other observations

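Some genes of other groups were higher with TYRO3, in the mean of the TYRO3 groups against GFP. Of 8 amino acid response genes 3 were called higher in edgeR, where 1.79% of all genes were. They were ASNS, asparagine synthetase, at a log2 fold change of 1.62 ± 0.31 (SE), PSAT1 at 1.25 ± 0.25 (SE) and PHGDH at 1.00 ± 0.21 (SE), both of serine synthesis. CHAC1 had 2.82 ± 0.80 (SE) and was not called. With a term for each experiment 6 of the 8 were called higher, where 3.48% of all genes were. Without experiment 1 edgeR called 0 of the 8, and 5 had an unadjusted p under 0.05, beside 1418 of 14960 genes tested. With the term for each experiment 5 of the 8 were called there, where 1.49% of all genes were called higher. The summed level of the list was 733 to 1174 CPM in GFP and 1268 to 3191 CPM with TYRO3, without overlap.

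Of 8 interferon-stimulated genes 2 were called higher in edgeR, again beside 1.79% of all genes. They were MX1 at 2.21 ± 0.58 and OAS1 at 3.33 ± 0.89, whereas IFIT1 had 1.93 ± 0.53 and ISG15 1.25 ± 0.37 (log2 fold change ± SE). The fold change of OAS1 rests on a control near the floor. OAS1 had 0 counts in GFP of experiment 1 and at most 2.94 CPM in any GFP library, against 4.71 to 37.8 CPM with TYRO3. A term for each experiment brought 8 of 8 calls, beside 3.48% of all genes. Without experiment 1 edgeR called 0 of these, and 4 had an unadjusted p under 0.05, beside 1418 of 14960 genes tested. With the term for each experiment 7 of the 8 interferon-stimulated genes were called there, beside 1.49% of all genes. Their summed level was 333 to 671 CPM in GFP and 650 to 2304 CPM with TYRO3, with the ranges overlapping.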
